A study of Homo sapiens with 3 samples.

Results

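Solute carrier (SLC) genes encode membrane proteins that move nutrients, metabolites and ions across the plasma membrane and the membranes of organelles. Members were the gene symbols made of SLC, a family number, letters and a number, with a mean of at least 1 CPM (counts scaled to the library total) over the 3 libraries. This took 150 of the 285 such symbols, out of 8949 genes at that level. Each member passed on its mean, so 31 of the 150 were below 1 CPM in at least 1 library. They were 6 members in the V1-labelled library, 7 in the V4-labelled library and 24 in the library taken as empty vector. Just inside the limit stood SLC25A11, at 11, 13 and 5 counts in the V1-labelled library, the V4-labelled library and the library taken as empty vector. Just outside it stood SLC2A7, at 3, 4 and 16 counts in the same libraries.

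The cells were 22Rv1, a human prostate cancer cell line, transfected with a plasmid for MLPH transcript V1, a plasmid for MLPH transcript V4, or an empty vector. MLPH encodes melanophilin, an adaptor between the small GTPase Rab27a and the motor myosin Va. Cells were treated for 48 h with 20 μg of an MLPH plasmid, and poly(A) RNA was then sequenced. Each group had 1 library. The count columns of V1 and V4 carry those names. The third column names neither, and it was taken as the empty vector by elimination, so every value over empty vector rests on that assignment. A single cell line was used, and how many cells took up plasmid was not analysed here.

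SLC proteins work as uniporters, symporters or exchangers, and many draw on the sodium gradient kept by the sodium pump. Members of the SLC7 family of amino acid exchangers reach the cell surface as pairs with a heavy chain, SLC3A1 or SLC3A2. Most SLC30 proteins move zinc out of the cytosol and SLC39 proteins move it in. SLC25 proteins carry metabolites across the inner mitochondrial membrane, and SLC35 proteins bring nucleotide sugars into the Golgi and the endoplasmic reticulum. Prostate epithelium is known for high zinc and citrate.

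The libraries held 9248734 counts (V1-labelled), 9604272 counts (V4-labelled) and 7162612 counts (taken as empty vector). The 13 mitochondrial protein genes took 14.9% of counts in the V1-labelled library and 16.9% in the V4-labelled library, against 11.1% in the library taken as empty vector, and the part of this difference in the results was not tested. The median member had 109 counts, 115 counts and 37 counts in those libraries, so the last gives the least precise counts. MLPH, the transfected gene, was read at 7219 counts in the V1-labelled library and 7773 in the V4-labelled library, against 7441 in the library taken as empty vector. After scaling by TMM (a factor that sets the bulk of genes level between libraries), MLPH was 1.63-fold lower in V1 over empty vector (interval 1.58 to 1.68) and 1.53-fold lower in V4 over empty vector (interval 1.48 to 1.58). A gene-level excess of MLPH in the transfected cells was therefore not seen, so MLPH does not bear out the labels or the assignment by elimination. The reason was not tested. All intervals are 95% exact (Clopper-Pearson) intervals of counting error alone, and no difference has a replicate check. In bulk RNA, fewer cells of a type and less RNA per cell cannot be told apart.

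Of the markers listed for luminal prostate cells, 7 of 10 were in the table, and their summed level was 1379, 1545 and 1299 scaled CPM in the V1-labelled library, the V4-labelled library and the library taken as empty vector. Fibroblast markers (4 of 6 in the table) summed to 154 scaled CPM in the V1-labelled library, 4.75 in the V4-labelled library and 172 in the library taken as empty vector. The leukocyte marker PTPRC was at 0 in all 3 libraries, and leukocyte markers (3 of 4 in the table) summed to between 5.84 and 8.62 scaled CPM. Basal markers (2 of 3) summed to between 0.792 and 1.49. Some lists moved with the comparisons over empty vector. Neuroendocrine markers (3 of 3) summed to 336 scaled CPM in the V1-labelled library and 347 in the V4-labelled library, against 169 in the library taken as empty vector. ENO2 made up most of that sum, at 274, 280 and 137 scaled CPM in those libraries. SYP had 62, 67 and 31 scaled CPM, while CHGA had only 2, 1 and 2 counts. Erythroid markers (2 of 2) summed to 13.4 and 10.3 in the V1-labelled and V4-labelled libraries, against 23.0 in the library taken as empty vector. Endothelial markers (2 of 3) summed to 0 and 0.594 in the V1-labelled and V4-labelled libraries, against 7.76 in the library taken as empty vector. Their part in the results below was not tested.

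SLC genes leaned to the higher side in both comparisons with the empty vector. A member was called higher or lower at 1.5-fold or more (log2 ratio with a prior count of 2) where its interval excluded 1. In V1 over empty vector, 74 of 150 members were called higher, against 32.8% of all kept genes, and 23 were called lower, against 26.2% of all kept genes. In V4 over empty vector, 77 members were called higher, against 32.7% of all kept genes, and 29 lower, against 29.3%. The median log2 ratio of the members was 0.80 in both, while that of all kept genes was 0.12 in V1 over empty vector and 0.08 in V4 over empty vector. These comparisons share the library taken as empty vector, so they are not independent of each other. The filter bears on the counts as well. The 24 members below 1 CPM in the library taken as empty vector reached the mean only through the MLPH-labelled libraries, which favours higher calls. Fewer were below 1 CPM in the V1-labelled library (6) or the V4-labelled library (7). All kept genes passed the same filter.

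V4 over V1 was much closer. There 5 members were called higher, against 5.42% of all kept genes, and 9 lower, against 6.95%, so 136 of 150 were called neither. Those 5 make up 3.33% of the members, and both shares of members lay near those of all kept genes.

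**Figure D1:**
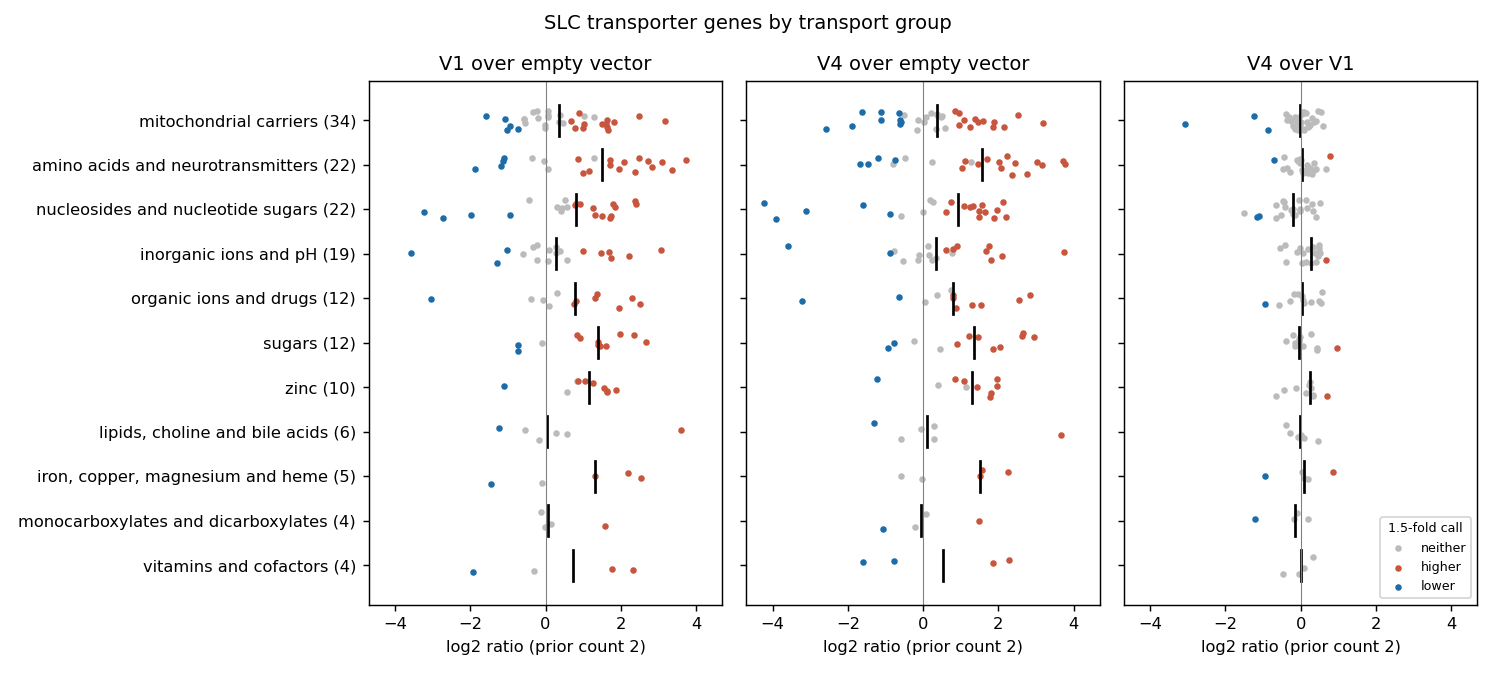
Each point is a member, placed by its log2 ratio (x axis, prior count 2) in its transport group (y axis, number of members in brackets), and black lines mark group medians. Amino acid, sugar, zinc and metal carriers have medians above 1 in both panels over empty vector, and all group medians lie between -0.19 and 0.28 in V4 over V1.

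Transcript length moved with the ratios over empty vector. In V1 over empty vector the median log2 ratio of all kept genes was -0.61 in the shortest of 5 equal length classes of transcripts and 0.67 in the longest, and that of members was 0.21 (14 members) and 1.49 (29 members). In V4 over empty vector all kept genes had medians of -0.81 and 0.80 at those ends, and members 0.12 and 1.55. With a length trend removed over all genes, an alternative added after the data were seen, 79 of 149 members were called higher (53.0%, against 36.3% of all genes with a length) and 20 lower (13.4%, against 18.5%) in V1 over empty vector. Of the same members 75 were called higher in V4 over empty vector (50.3%, against 35.9%) and 23 lower (15.4%, against 21.2%). The members' median was above that of all kept genes in each of the 5 length classes in V1 over empty vector. In V4 over empty vector it was close to it in class 2 (-0.07 for members and -0.13 for all kept genes), where 7 of 29 members were called higher and 10 lower, and above it in the other classes. Of all kept genes in class 2, 23.8% were called higher and 31% lower in that comparison. The shortest class holds only 14 members.

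**Figure D2:**
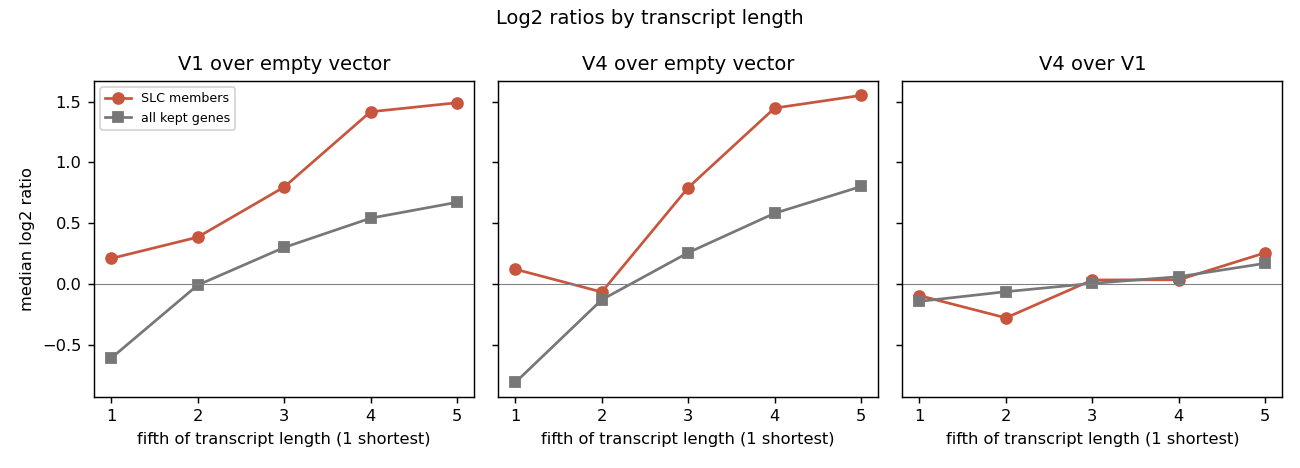
The median log2 ratio (y axis) of the members and of all kept genes is drawn for 5 equal classes of transcript length (x axis, longest GENCODE transcript, shortest class at the left). In V1 over empty vector the medians of all kept genes run between -0.61 and 0.67, and the members' medians lie above them in every class.

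Amino acid and neurotransmitter carriers stood on the higher side over empty vector. Of 22 members, 14 were called higher and 4 lower in V1 over empty vector, with a median log2 ratio of 1.51, and likewise 14 and 4 in V4 over empty vector, with a median of 1.58. The share called higher was 63.6% in both, against 32.8% and 32.7% of all kept genes. The share called lower was 18.2% in both, against 26.2% and 29.3%. SLC1A3, SLC6A6, SLC6A15 and SLC43A1, called higher in both, were below 1 CPM in the library taken as empty vector. They passed the filter only through the MLPH-labelled libraries, which favours such calls. SLC38A2, a sodium-coupled importer of small neutral amino acids, had 2831 counts in the V1-labelled library and 3674 in the V4-labelled library, against 173 in the library taken as empty vector. It was 10.4-fold higher in V1 over empty vector (interval 8.88 to 12.1) and 13.3-fold higher in V4 over empty vector (interval 11.4 to 15.6). SLC7A5, the large neutral amino acid exchanger LAT1, had 2630 and 2769 counts in the V1-labelled and V4-labelled libraries, against 252 in the library taken as empty vector. Its ratio was 6.61 (interval 5.80 to 7.55) in V1 over empty vector and 6.87 (interval 6.04 to 7.85) in V4 over empty vector. Both genes were far above the library taken as empty vector in each MLPH-labelled library.

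The DNA before the start of these 2 genes is shown because they had the 2 highest lower bounds among members in V1 over empty vector. Each sequence is the 250 bases before the RefSeq start, 5′ to 3′ on the gene's minus strand, on GRCh38.p14: chr12:46372774-46373023 for SLC38A2 and chr16:87869508-87869757 for SLC7A5. Capitals mark GC boxes (GGGCGG on either strand).
SLC38A2: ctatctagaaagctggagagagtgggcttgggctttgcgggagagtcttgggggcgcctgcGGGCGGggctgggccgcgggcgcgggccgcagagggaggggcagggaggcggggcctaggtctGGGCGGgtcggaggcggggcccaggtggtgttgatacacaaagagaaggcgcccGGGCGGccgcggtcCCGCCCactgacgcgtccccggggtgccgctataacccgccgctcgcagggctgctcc
SLC7A5: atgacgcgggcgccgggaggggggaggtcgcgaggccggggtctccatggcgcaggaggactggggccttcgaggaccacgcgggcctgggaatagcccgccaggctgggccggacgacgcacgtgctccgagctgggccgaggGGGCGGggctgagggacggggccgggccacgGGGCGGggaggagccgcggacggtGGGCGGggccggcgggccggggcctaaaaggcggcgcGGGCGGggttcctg
Each holds 4 GC boxes and neither holds CCAAT or the amino acid response core TGATGNAA on either strand. Among 34788 RefSeq promoter windows of that length, 42.6% hold GGGCGG, 32.0% hold CCAAT and 3.16% hold TGATGNAA. Promoters were found for 123 of the 150 members (174 windows), and 61.5% of these hold GGGCGG, 32.8% CCAAT and 3.45% TGATGNAA. These are matches of letters, not sites shown to be bound.

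The heavy chain was lower over empty vector, while its light chains went in different directions. SLC3A2, the CD98 heavy chain, had 5662 counts in the V1-labelled library and 4717 in the V4-labelled library, against 8194 in the library taken as empty vector. It was 2.29-fold lower in V1 over empty vector (interval 2.21 to 2.37) and 2.78-fold lower in V4 over empty vector (interval 2.68 to 2.88). Of its 5 light chains among the members, SLC7A5 and SLC7A11 were called higher, SLC7A6 and SLC7A7 lower, and SLC7A8 neither, in both comparisons. SLC7A11, the cystine and glutamate exchanger, had 728 and 1258 counts in the V1-labelled and V4-labelled libraries, against 87 in the library taken as empty vector. Its ratio was 5.30 (interval 4.24 to 6.69) in V1 over empty vector and 9.04 (interval 7.27 to 11.4) in V4 over empty vector. SLC7A6 and SLC7A7, which exchange cationic for neutral amino acids, were lower at 10 and 17 counts (V1-labelled) and 12 and 16 counts (V4-labelled), against 27 and 25 counts (taken as empty vector). The other heavy chain, SLC3A1, was 1.82-fold higher in V1 over empty vector (interval 1.53 to 2.19) and 2.16-fold higher in V4 over empty vector (interval 1.81 to 2.57).

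**Figure D3:**
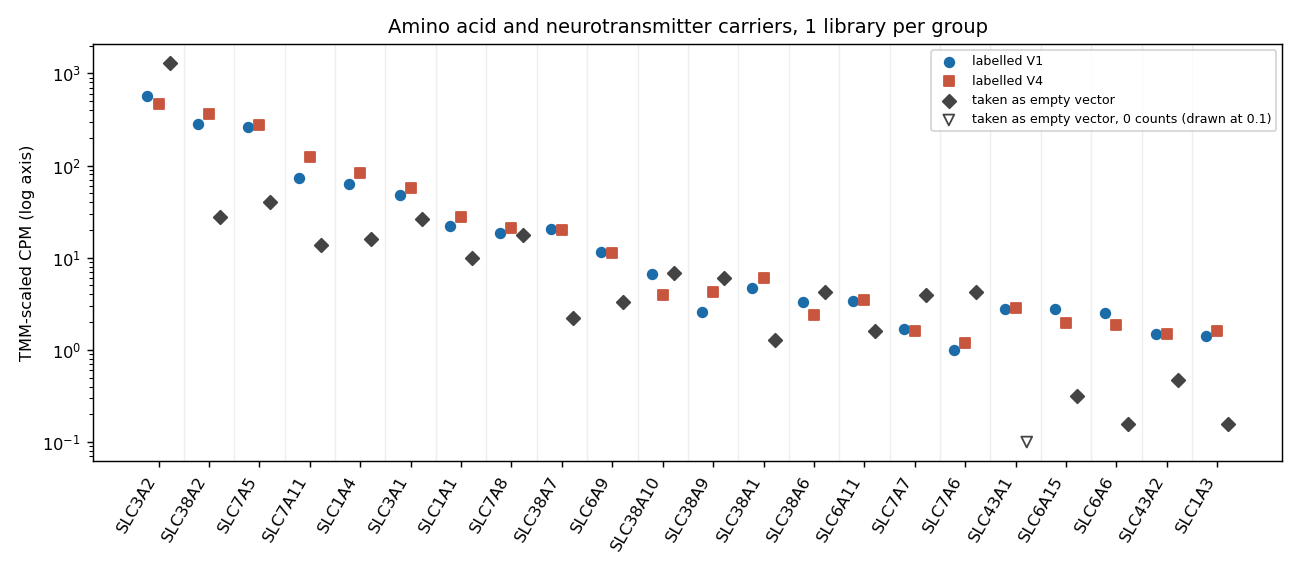
TMM-scaled CPM (y axis, log axis) of the 22 amino acid and neurotransmitter carriers in the V1-labelled library, the V4-labelled library and the library taken as empty vector, 1 point each. SLC38A2, SLC7A5 and SLC7A11 are higher in the MLPH-labelled libraries, and SLC3A2, SLC7A6 and SLC7A7 are lower there.

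Further carriers of this group were higher over empty vector. SLC38A7, a lysosomal glutamine exporter, had 206 and 200 counts in the V1-labelled and V4-labelled libraries, against 14 in the library taken as empty vector, ratios of 9.31 (interval 5.43 to 17.3) in V1 over empty vector and 8.93 (interval 5.2 to 16.6) in V4 over empty vector. SLC1A4, the neutral amino acid exchanger ASCT1, had 628 and 844 counts in the V1-labelled and V4-labelled libraries, against 102 in the library taken as empty vector. It was 3.90-fold higher (interval 3.16 to 4.85) in V1 over empty vector and 5.17-fold higher (interval 4.21 to 6.42) in V4 over empty vector. SLC43A1, the leucine transporter LAT3, had 28 and 29 counts in those MLPH-labelled libraries and 0 in the library taken as empty vector. With its 0 set to 3 counts, the most that a count of 0 allows, and its other counts taken as exact, SLC43A1 was at least 5.91-fold higher with V1 and at least 6.05-fold higher with V4. With the counting error of the 28 and 29 counts included, the lower bounds were 4.49 with V1 and 4.61 with V4. SLC38A9, a lysosomal arginine sensor, was called lower in V1 over empty vector alone (2.31-fold, interval 1.37 to 3.96), at 26 counts in the V1-labelled library against 38 in the library taken as empty vector. In V4 over empty vector it was 1.41-fold lower with an interval of 0.889 to 2.24, and whether the ratios differ was read from V4 over V1, 1.63 (interval 0.982 to 2.77).

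Zinc carriers as a group were mostly higher over empty vector. Of 10 members, 7 were called higher and 1 lower in each comparison, with median log2 ratios of 1.15 in V1 over empty vector and 1.30 in V4 over empty vector. The share called higher was 70% in both, against 32.8% and 32.7% of all kept genes. The share called lower was 10% in both, against 26.2% and 29.3%. Among the SLC30 members 5 of 6 were called higher in V1 over empty vector and 4 of 6 in V4 over empty vector, with 0 lower. Among the SLC39 members 2 of 4 were called higher and 1 lower in V1 over empty vector, and 3 of 4 higher and 1 lower in V4 over empty vector. SLC30A9, which exports zinc from mitochondria and so does not take it out of the cytosol, had 319 and 380.4 scaled CPM in the V1-labelled and V4-labelled libraries, against 109 in the library taken as empty vector. Its ratios were 2.93 (interval 2.70 to 3.19) in V1 over empty vector and 3.50 (interval 3.23 to 3.80) in V4 over empty vector. SLC30A1, the zinc exporter of the plasma membrane, had 2216 and 2633 counts in the V1-labelled and V4-labelled libraries, against 776 in the library taken as empty vector, ratios of 1.81 (interval 1.66 to 1.96) in V1 over empty vector and 2.12 (interval 1.96 to 2.30) in V4 over empty vector.

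Among the SLC39 importers the members parted. SLC39A6 had 2888 and 3240 counts in the V1-labelled and V4-labelled libraries, against 585 in the library taken as empty vector, and was 3.12-fold higher in V1 over empty vector (interval 2.86 to 3.42) and 3.46-fold higher in V4 over empty vector (interval 3.17 to 3.79). SLC39A3 went the other way at 660 and 612 counts in the V1-labelled and V4-labelled libraries, against 898 in the library taken as empty vector, 2.15-fold lower (interval 1.94 to 2.38) in V1 over empty vector and 2.35-fold lower (interval 2.11 to 2.60) in V4 over empty vector. SLC39A10, a zinc importer of the plasma membrane, was 4.01-fold higher in V1 over empty vector (interval 2.17 to 8.10) and 2.92-fold higher in V4 over empty vector (interval 1.55 to 5.98).

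SLC30A7, which loads zinc into the secretory pathway, had 127 and 163 counts in the V1-labelled and V4-labelled libraries, against 25 in the library taken as empty vector. It was 3.22-fold higher (interval 2.08 to 5.16) in V1 over empty vector and 4.08-fold higher (interval 2.67 to 6.49) in V4 over empty vector. SLC30A10 is known as a manganese exporter. SLC30A10 had 131 and 219 counts in the V1-labelled and V4-labelled libraries, against 34 in the library taken as empty vector. It was 2.44-fold higher (interval 1.66 to 3.67) in V1 over empty vector and 4.03-fold higher (interval 2.80 to 5.97) in V4 over empty vector. Most SLC30 members stood above the library taken as empty vector in both MLPH-labelled libraries.

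The promoter of SLC30A1 is shown because this gene is a known target of the zinc sensor MTF1. It is the 250 bases before the RefSeq start on the minus strand, chr1:211579162-211579411 on GRCh38.p14. Capitals mark GC boxes, CCAAT boxes and the metal response core, each on either strand with overlaps allowed. The core was searched as TGCACNC. The variant TGCGCNC of the core was searched as well.
SLC30A1: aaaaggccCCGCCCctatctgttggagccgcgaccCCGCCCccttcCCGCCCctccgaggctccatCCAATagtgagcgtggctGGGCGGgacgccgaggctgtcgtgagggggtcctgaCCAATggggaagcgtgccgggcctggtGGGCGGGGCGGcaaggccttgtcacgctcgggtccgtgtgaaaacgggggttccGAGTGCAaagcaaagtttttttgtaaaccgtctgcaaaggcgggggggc
It holds 6 GC boxes, 2 CCAAT boxes and 1 metal response core, matched on the reverse strand. Of all 34788 windows, 24.8% hold that core, as do 30.5% of the 174 windows of members. MTF1 had 655 and 806 counts in the V1-labelled and V4-labelled libraries, against 207 in the library taken as empty vector, ratios of 2.0 (interval 1.71 to 2.35) in V1 over empty vector and 2.44 (interval 2.09 to 2.85) in V4 over empty vector. Whether MTF1 had a part in the SLC30A1 values was not tested. The marked core is a match of letters, not a site shown to be bound.

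Carriers of iron, copper and heme had 3 of 5 members called higher and 1 lower in V1 over empty vector, and 3 higher and 0 lower in V4 over empty vector. The share called higher was 60% in both, against 32.8% and 32.7% of all kept genes. The share called lower was 20% and 0%, against 26.2% and 29.3%. The lower one was SLC11A1, the phagosomal metal transporter NRAMP1, with 20 counts in the V1-labelled library against 37 in the library taken as empty vector, 2.92-fold lower (interval 1.65 to 5.31). SLC31A1, the high-affinity copper importer, had 856 and 993 counts in the V1-labelled and V4-labelled libraries, against 215 in the library taken as empty vector, ratios of 2.52 (interval 2.17 to 2.94) in V1 over empty vector and 2.89 (interval 2.49 to 3.36) in V4 over empty vector. SLC48A1, a heme transporter of endosomes and lysosomes, was 5.01-fold higher (interval 2.66 to 10.4) in V1 over empty vector and 5.29-fold higher (interval 2.82 to 11) in V4 over empty vector. SLC40A1, the iron exporter ferroportin, had 29 and 14 counts in the V1-labelled and V4-labelled libraries, against 2 in the library taken as empty vector. Its ratio in V4 over empty vector was 4.38 (interval 1.01 to 39.7). That call ended under DESeq2 size factors and upper-quartile scaling, and with the length or the GC trend removed. SLC40A1 was below 1 CPM in the library taken as empty vector, which favours higher calls. SLC11A2, the iron importer DMT1, was level, at 232, 239 and 245 scaled CPM in the V1-labelled library, the V4-labelled library and the library taken as empty vector.

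The families of sugar carriers had 9 of 12 members called higher and 2 lower in V1 over empty vector, and 8 and 2 in V4 over empty vector. These were grouped by family number, and 2 of the higher members in both comparisons are known for other cargo, SLC5A6 (vitamins) and SLC5A8 (monocarboxylates). The median log2 ratio of the 12 was 1.38 in V1 over empty vector and 1.34 in V4 over empty vector. Of the 12, 75% and 66.7% were called higher, against 32.8% and 32.7% of all kept genes. Lower calls were 16.7% in both, against 26.2% and 29.3%. SLC2A10, SLC2A12 and SLC5A8, called higher in both, were below 1 CPM in the library taken as empty vector. They passed the filter only through the MLPH-labelled libraries, which favours such calls. SLC2A1, the glucose transporter GLUT1, had 1780 and 1622 counts in the V1-labelled and V4-labelled libraries, against 431 in the library taken as empty vector, ratios of 2.61 (interval 2.35 to 2.91) in V1 over empty vector and 2.35 (interval 2.12 to 2.62) in V4 over empty vector. SLC5A3, the sodium-coupled myo-inositol transporter, was 6.92-fold higher (interval 4.07 to 12.6) in V1 over empty vector and 6.71-fold higher (interval 3.95 to 12.3) in V4 over empty vector. SLC2A10, a glucose transporter family member, had 66 and 82 counts in the V1-labelled and V4-labelled libraries, against 7 in the library taken as empty vector. It was 5.97-fold higher (interval 2.74 to 15.4) in V1 over empty vector and 7.33-fold higher (interval 3.40 to 18.8) in V4 over empty vector. SLC2A8 and SLC2A11 were called lower in both, SLC2A8 by 1.67-fold in V1 over empty vector (interval 1.35 to 2.07) and 1.72-fold in V4 over empty vector (interval 1.39 to 2.14).

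**Figure D4:**
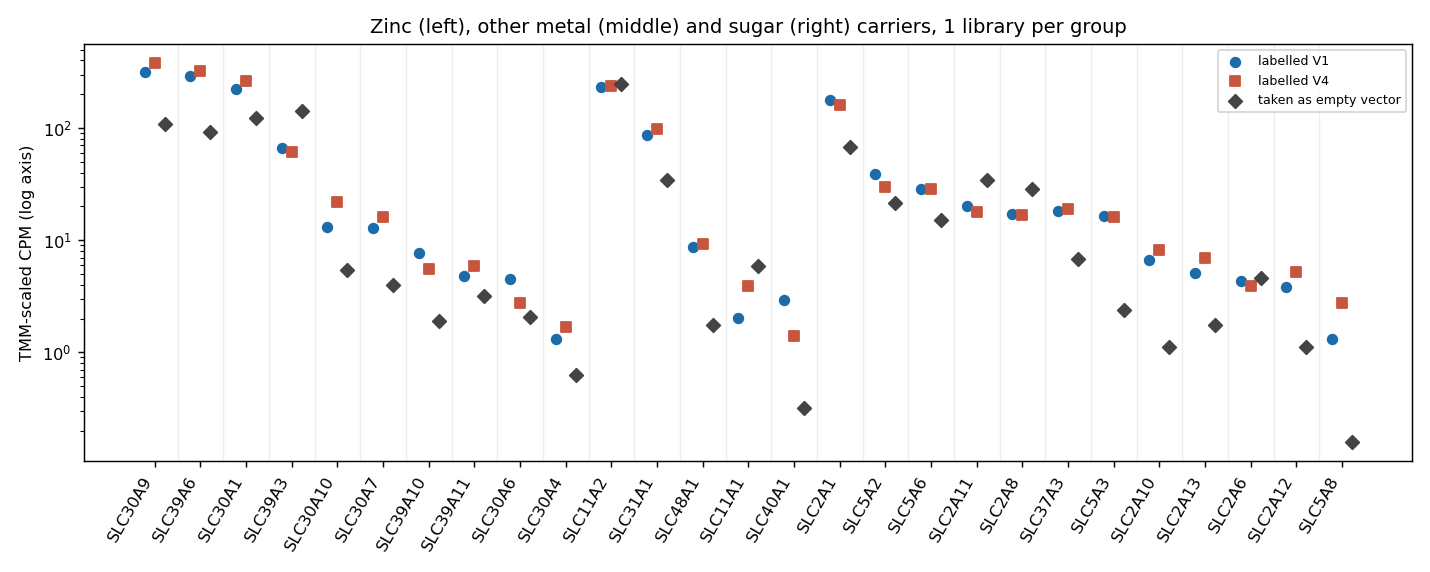
TMM-scaled CPM (y axis, log axis) of zinc carriers, of other metal carriers and of sugar carriers in the V1-labelled library, the V4-labelled library and the library taken as empty vector, 1 point each. Most genes are higher in both MLPH-labelled libraries, while SLC39A3, SLC2A8, SLC2A11 and SLC11A1 are lower and SLC11A2 is level.

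Mitochondrial carriers were the largest group, at 34 members. Of these 13 were called higher and 5 lower in V1 over empty vector, with a median log2 ratio of 0.37, and in V4 over empty vector 13 higher and 9 lower, with the same median. The 13 are 38.2% of the group, near the 32.8% and 32.7% of all kept genes, and the lower members were 14.7% in V1 over empty vector, against 26.2%, and 26.5% in V4 over empty vector, against 29.3%. SLC25A34, called higher in V1 over empty vector, and SLC25A52, called higher in V4, were below 1 CPM in the library taken as empty vector. SLC25A4, SLC25A5 and SLC25A6 are ADP/ATP carriers, and none of these was called in V1 over empty vector. Each was called lower in V4 over empty vector, just past the 1.5-fold limit, SLC25A4 by 1.54-fold (interval 1.46 to 1.62) and SLC25A6 by 1.55-fold (interval 1.5 to 1.61). SLC25A5 had 746 and 703 scaled CPM in the V1-labelled and V4-labelled libraries, against 1084 in the library taken as empty vector. It was 1.45-fold lower in V1 over empty vector (interval 1.41 to 1.5), which was below the call, and 1.54-fold lower in V4 over empty vector (interval 1.49 to 1.60), which was called. The direction for SLC25A5 turned with the length trend removed (log2 ratio 0.47 in V4 over empty vector), and the gene has near-identical pseudogene copies whose reads the counting may split. SLC25A1, the citrate exporter, had 1930 and 1514 counts in the V1-labelled and V4-labelled libraries, against 2044 in the library taken as empty vector, 1.67-fold lower (interval 1.57 to 1.78) in V1 over empty vector and 2.16-fold lower (interval 2.02 to 2.31) in V4 over empty vector.

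Several mitochondrial carriers with smaller counts were higher over empty vector. SLC25A40, a glutathione carrier, had 147 and 151 counts in the V1-labelled and V4-labelled libraries, against 9 in the library taken as empty vector, ratios of 10.3 (interval 5.30 to 23.1) in V1 over empty vector and 10.5 (interval 5.38 to 23.4) in V4 over empty vector. SLC25A46, an outer membrane protein of mitochondrial dynamics, was 5.72-fold higher (interval 4.29 to 7.77) in V1 over empty vector and 5.88-fold higher (interval 4.41 to 7.99) in V4 over empty vector. SLC25A51, the NAD+ carrier, was 1.99-fold higher (interval 1.64 to 2.44) in V1 over empty vector and 2.38-fold higher (interval 1.96 to 2.90) in V4 over empty vector. SLC25A37, the iron carrier mitoferrin 1, was 2.89-fold higher (interval 2.15 to 3.94) in V1 over empty vector and 2.79-fold higher (interval 2.07 to 3.80) in V4 over empty vector. SLC25A26, the S-adenosylmethionine carrier, was lower at 188 and 185 counts in the V1-labelled and V4-labelled libraries, against 360 in the library taken as empty vector, by 3.03-fold (interval 2.53 to 3.63) in V1 over empty vector and 3.11-fold (interval 2.60 to 3.74) in V4 over empty vector. SLC25A3, the phosphate carrier that every respiring cell uses, was listed at only 26, 39 and 19 counts in the V1-labelled library, the V4-labelled library and the library taken as empty vector.

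Carriers of nucleosides and nucleotide sugars had 11 of 22 members called higher and 4 lower in V1 over empty vector, and 13 and 5 in V4 over empty vector. The share called higher was 50% and 59.1%, against 32.8% and 32.7% of all kept genes. The share called lower was 18.2% and 22.7%, against 26.2% and 29.3%. SLC35B3 and SLC35F2, called higher in both, were below 1 CPM in the library taken as empty vector, which favours such calls. SLC35F6 had 1437 and 1304 counts in the V1-labelled and V4-labelled libraries, against 274 in the library taken as empty vector, ratios of 3.32 (interval 2.92 to 3.79) in V1 over empty vector and 2.98 (interval 2.61 to 3.40) in V4 over empty vector. SLC35A3, a carrier of UDP-N-acetylglucosamine, was 3.57-fold higher (interval 2.01 to 6.83) in V1 over empty vector and 3.98-fold higher (interval 2.25 to 7.57) in V4 over empty vector, while SLC35A2, the UDP-galactose carrier, was 2.04-fold lower (interval 1.04 to 4.10) in V1 over empty vector and 3.52-fold lower (interval 1.60 to 8.32) in V4 over empty vector. SLC35A3 and SLC35A2 thus stood on different sides of the library taken as empty vector. SLC35A2 had only 17 and 10 counts in the V1-labelled and V4-labelled libraries, against 22 in the library taken as empty vector. SLC35A4, the member of this group with the most counts, had 1599 and 1569 counts in the V1-labelled and V4-labelled libraries, against 582 in the library taken as empty vector. It was 1.74-fold higher (interval 1.58 to 1.92) in V1 over empty vector and 1.69-fold higher (interval 1.53 to 1.86) in V4 over empty vector. SLC35F2, a family member known to carry the drug YM155 into human cells, had 52 and 38 counts in the V1-labelled and V4-labelled libraries, against 5 in the library taken as empty vector. It was 6.58-fold higher (interval 2.65 to 21.1) in V1 over empty vector and 4.75-fold higher (interval 1.87 to 15.5) in V4 over empty vector. The lowest ratios of the family belonged to SLC35G3, SLC35G4 and SLC35G5, at 6, 7 and 29 counts in the V1-labelled library and 3, 1 and 12 in the V4-labelled library, against 48, 37 and 76 in the library taken as empty vector. SLC35G5 was 4.14-fold lower (interval 2.67 to 6.59) in V1 over empty vector and 10.1-fold lower (interval 5.47 to 20.5) in V4 over empty vector. Their sequences are nearly identical, so the split of reads among these 3 genes is uncertain.

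Ion carriers had 6 of 19 called higher and 3 lower in V1 over empty vector, and 8 and 2 in V4 over empty vector. The share called higher was 31.6% in V1 over empty vector, against 32.8% of all kept genes, and 42.1% in V4 over empty vector, against 32.7%. The share called lower was 15.8% and 10.5% in these comparisons, against 26.2% and 29.3%. SLC9A2 and SLC9A3, called higher in both, were below 1 CPM in the library taken as empty vector, which favours such calls. SLC20A1, a sodium-phosphate importer, had 953 and 986 counts in the V1-labelled and V4-labelled libraries, against 181 in the library taken as empty vector, ratios of 3.33 (interval 2.84 to 3.93) in V1 over empty vector and 3.41 (interval 2.90 to 4.01) in V4 over empty vector. SLC26A2, a sulfate transporter, had 137 and 221 counts in the same MLPH-labelled libraries, against 9 in the library taken as empty vector, ratios of 9.63 (interval 4.93 to 21.5) in V1 over empty vector and 15.4 (interval 7.94 to 34.0) in V4 over empty vector. SLC9A3, the sodium-proton exchanger NHE3, had 41 and 55 counts in the V1-labelled and V4-labelled libraries, against 7 in the library taken as empty vector. It was 3.71-fold higher (interval 1.65 to 9.79) in V1 over empty vector and 4.91-fold higher (interval 2.23 to 12.8) in V4 over empty vector. SLC26A8, an anion transporter known from sperm, had 2 counts in each MLPH-labelled library, against 31 in the library taken as empty vector, 24.5-fold lower (interval 6.23 to 211) in V1 over empty vector and 24.8-fold lower (interval 6.31 to 214) in V4 over empty vector.

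Organic ion carriers had 7 of 12 called higher in each comparison over empty vector, with 1 lower in V1 and 2 lower in V4. The share called higher was 58.3% in both, against 32.8% and 32.7% of all kept genes. The share called lower was 8.33% and 16.7%, against 26.2% and 29.3%. SLC22A3 and SLC22A18, called higher in both, and SLC22A4, called higher with V1, were below 1 CPM in the library taken as empty vector. They passed the filter only through the MLPH-labelled libraries, which favours such calls. SLC47A1, the drug and cation exporter MATE1, was 2.62-fold higher in V1 over empty vector (interval 2.09 to 3.30) and 2.50-fold higher in V4 over empty vector (interval 2.0 to 3.15). SLC22A5, the carnitine importer OCTN2, had 109 and 56 counts in the V1-labelled and V4-labelled libraries, against 11 in the library taken as empty vector. It was 6.27-fold higher (interval 3.37 to 12.9) in V1 over empty vector and 3.18-fold higher (interval 1.65 to 6.74) in V4 over empty vector. SLC22A18, an organic cation transporter family member, had 40 and 60 counts in the V1-labelled and V4-labelled libraries, against 4 in the library taken as empty vector. It was 6.33-fold higher (interval 2.29 to 24.4) in V1 over empty vector and 9.38-fold higher (interval 3.48 to 35.5) in V4 over empty vector. SLC18A1, the vesicular monoamine transporter VMAT1, had 7 and 6 counts in the V1-labelled and V4-labelled libraries, against 47 in the library taken as empty vector, 10.6-fold lower (interval 4.76 to 27.8) in V1 over empty vector and 12.5-fold lower (interval 5.34 to 35.9) in V4 over empty vector. SLC18A1 was the member of this group that stood lowest against the library taken as empty vector.

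In the lipid group 1 of 6 was higher and 1 lower in each: SLC10A7 had 63 and 68 counts in the V1-labelled and V4-labelled libraries, against 2 in the library taken as empty vector, and SLC27A5, a bile acid and fatty acid CoA ligase, had 235 and 227 counts, against 353 in the same libraries. Either share is 16.7% of the group. Of all kept genes, 32.8% (V1) and 32.7% (V4) were higher over empty vector, and 26.2% and 29.3% lower. SLC10A7 was below 1 CPM in the library taken as empty vector and passed the filter only through the MLPH-labelled libraries.

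The 4 vitamin carriers went in both directions. SLC19A2, a thiamine importer, was 5.08-fold higher (interval 4.15 to 6.26) in V1 over empty vector and 4.92-fold higher (interval 4.02 to 6.08) in V4 over empty vector. SLC46A1, the proton-coupled folate transporter, had 70 and 75 counts in the V1-labelled and V4-labelled libraries, against 12 in the library taken as empty vector. It was 3.69-fold higher (interval 1.99 to 7.49) in V1 over empty vector and 3.91-fold higher (interval 2.11 to 7.90) in V4 over empty vector. SLC19A1, the reduced folate carrier, was lower at 5 and 7 counts in the V1-labelled and V4-labelled libraries, against 16 in the library taken as empty vector. SLC52A2, a riboflavin transporter, had 1685 and 1228 counts in the V1-labelled and V4-labelled libraries, against 1314 in the library taken as empty vector. It was 1.23-fold lower (interval 1.15 to 1.32) in V1 over empty vector and 1.71-fold lower (interval 1.58 to 1.85) in V4 over empty vector. The V4 call for SLC52A2 ended under scaling to library totals and with either trend removed. Of the 4 SLC16 monocarboxylate carriers, SLC16A9 was called higher in both, 3.11-fold (interval 2.01 to 5.0) in V1 over empty vector and 2.90-fold (interval 1.87 to 4.67) in V4 over empty vector. SLC16A13 was called lower in V4 over empty vector, with 21 counts in the V4-labelled library against 29 in the library taken as empty vector, 2.21-fold lower (interval 1.22 to 4.07), a call that ended with the length or the GC trend removed.

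V4 over V1 asks how cells given each MLPH transcript differ, and it does not use the library taken as empty vector beyond the common filter and scaling. The 5 members called higher were SLC7A11, SLC26A2, SLC30A10, SLC11A1 and SLC5A8. SLC7A11 had 125 scaled CPM in the V4-labelled library and 73.0 in the V1-labelled library, a ratio of 1.71 (interval 1.56 to 1.87). SLC30A10, a manganese exporter, had 219 counts in the V4-labelled library and 131 in the V1-labelled library, a ratio of 1.65 (interval 1.32 to 2.07). SLC26A2 had 221 and 137 counts in those libraries, a ratio of 1.59 (interval 1.28 to 1.99). SLC11A1 had 39 and 20, and SLC5A8, a sodium-coupled monocarboxylate transporter that the family number places with the sugar carriers, 28 and 13. With a length trend removed SLC7A11 (log2 ratio 0.54) and SLC26A2 (0.48) were no longer called, and their longest transcripts have 9645 and 8080 bases. GC content moved with this comparison too, with a Spearman correlation of -0.333 across all kept genes with a transcript, against 0.263 for length. These describe genes of the same libraries. With a GC trend removed SLC26A2 (log2 ratio 0.55) was not called either.

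The 9 members called lower in V4 over V1 were SLC25A21, SLC16A13, SLC22A5, SLC25A35, SLC25A34, SLC35G5, SLC35E4, SLC38A10 and SLC40A1. SLC25A21, the oxodicarboxylate carrier of mitochondria, stood farthest out, with 5 counts in the V4-labelled library and 58 in the V1-labelled library, 11.7-fold lower (interval 4.75 to 37.5). It was also lower in V4 over empty vector (8.31-fold, interval 3.14 to 27.7), at 26 counts in the library taken as empty vector, while V1 over empty vector gave a ratio of 1.41 (interval 0.875 to 2.34). SLC22A5 had 56 counts in the V4-labelled library and 109 in the V1-labelled library, 1.97-fold lower (interval 1.41 to 2.77). SLC16A13, a monocarboxylate carrier, had 21 and 51 counts in those libraries, 2.46-fold lower (interval 1.45 to 4.30). SLC40A1 had 14 and 29, 2.10-fold lower (interval 1.07 to 4.29). The remaining called members were 1.67-fold to 2.70-fold lower, with 9 to 47 counts in the V4-labelled library. Of the 9, 5 lie in the highest of 5 equal GC classes, where 13.3% of all kept genes were called lower. With the GC trend removed SLC35E4 (log2 ratio -0.87) and SLC38A10 (-0.47) were no longer called. The summed fibroblast markers given above moved with this comparison (4.75 scaled CPM in the V4-labelled library and 154 in the V1-labelled library), and their part in it was not tested. The sum was carried by COL1A2, with 4 and 976 counts in the V4-labelled and V1-labelled libraries, and COL3A1, with 0 and 526. LUM, from the same list, had 44 counts in the V4-labelled library and 33 in the V1-labelled library.

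**Figure D5:**
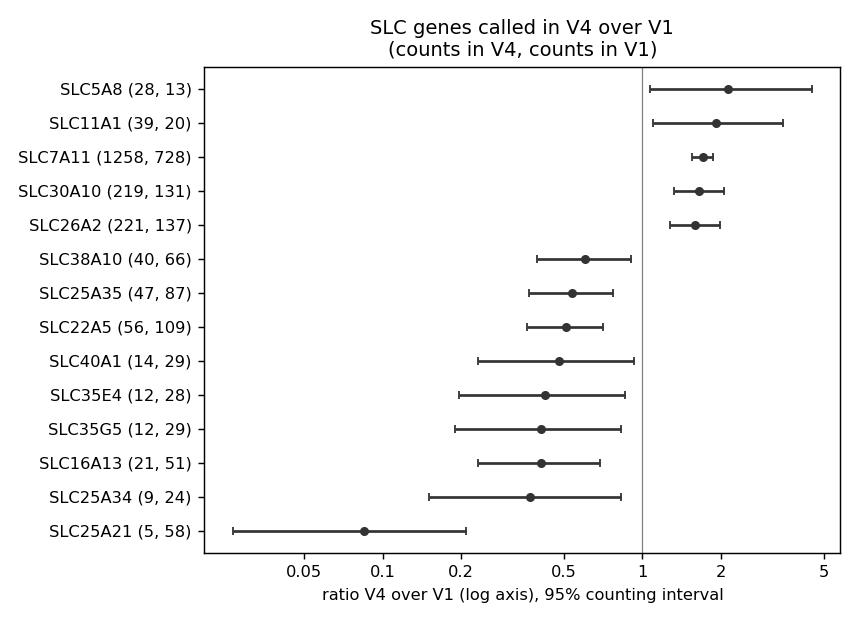
Ratio of V4 over V1 (x axis, log axis) with its 95% counting interval for the 14 called members (y axis, counts in the V4-labelled library, then in the V1-labelled library). SLC25A21 stands apart at 11.7-fold lower, and SLC7A11 has the narrowest interval.

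Proteins that work with the carriers were taken from a list of 21 genes, of which 13 were kept. In each comparison over empty vector 3 were called higher and 3 lower, with median log2 ratios of -0.26 (V1) and -0.28 (V4). Each is 23.1% of the list, against 32.8% higher and 26.2% lower over all kept genes in V1 over empty vector and 32.7% and 29.3% in V4 over empty vector. EMB, a chaperone of monocarboxylate transporters, had 352 and 427 counts in the V1-labelled and V4-labelled libraries, against 54 in the library taken as empty vector. ATP1B1, the beta subunit of the sodium pump, was 1.81-fold higher (interval 1.65 to 1.98) in V1 over empty vector and 1.82-fold higher (interval 1.66 to 1.99) in V4 over empty vector. MPC2, a subunit of the mitochondrial pyruvate carrier, was 1.61-fold lower (interval 1.55 to 1.68) in V1 over empty vector and 1.64-fold lower (interval 1.57 to 1.70) in V4 over empty vector.

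Of 13 transcription regulators known to act on transporter genes, 8 were kept. In V1 over empty vector 5 were called higher and 0 lower, in V4 over empty vector 5 higher and 1 lower, and in V4 over V1 0 either way. Over empty vector 62.5% were called higher in both, against 32.8% and 32.7% of all kept genes. Lower calls were 0% and 12.5%, against 26.2% and 29.3%. NFE2L2, which encodes the oxidative stress factor NRF2, had 150 and 177 counts in the V1-labelled and V4-labelled libraries, against 43 in the library taken as empty vector, ratios of 2.21 (interval 1.56 to 3.18) in V1 over empty vector and 2.57 (interval 1.84 to 3.68) in V4 over empty vector. HIF1A, TXNIP and MTF1 were also called higher, and MYC was the lower one (1.61-fold, interval 1.48 to 1.76). ATF4, DDIT3 and MLXIPL were not analysed here. Whether any of these regulators had a part in the members' values was not tested.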

How the data were processed

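Poly(A) RNA of 22Rv1 cells was measured in 3 libraries, 1 each for MLPH V1, MLPH V4 and empty vector. The deposited values are whole-number read counts per gene symbol, from 150 bp single-end reads per the labels' protocols, with hg19 as the build named in the submitters' processing notes. Aligner, counting tool, annotation, strandedness and handling of shared reads: not given in the sources used here. A technical replicate per line is mentioned in the design text, with any pooling of runs left unstated.

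The V1 and V4 columns were identified by name and the empty vector column by elimination. Of 15512 rows, 22 carried a calendar date for a symbol (0.0402% to 0.0532% of counts) and were left out. Counts of 21 symbols on several rows, among them SLC25A6, were summed. The filter was a mean CPM of 1 or more. TMM factors (edgeR 4.0.16, R 4.3.3) were 1.08 for V1, 1.05 for V4 and 0.882 for empty vector. Ratios carry 95% Clopper-Pearson intervals (scipy 1.17.1). A count of 0 allows up to 0.324, 0.312 and 0.419 CPM in these libraries. Intervals and floors cover counting error only. No test across samples was possible, so no p-value is given. Calls were checked on simulated data.

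Named genes were MLPH, SLC7A11, SLC45A3 (below the filter), the 8 members farthest out in each direction of each comparison by the bound nearest 1, each group's member with the highest mean CPM and up to 3 of its largest calls per comparison, members at 0 counts, and called list genes. Chosen after their values were seen were SLC1A4, SLC1A5, SLC20A1, SLC25A1, SLC25A11, SLC25A3, SLC25A37, SLC25A4, SLC25A51, SLC25A6, SLC2A11, SLC2A7, SLC2A8, SLC30A1, SLC35A2, SLC35A3, SLC35F6, SLC38A9, SLC39A3, SLC3A1, SLC44A1, SLC47A1, SLC7A6, SLC7A7 and SLC7A8. Also named were the members called higher over empty vector while below 1 CPM in the library taken as such. The members and lists were chosen with earlier results of these data known. Transcript lengths and GC came from GENCODE 29, found for 149 of 150 members and 91.2% of kept genes, and promoters from RefSeq. Trends used lowess (statsmodels 0.14.6, fraction 0.3). Alternatives were DESeq2 1.42.0 size factors, library totals, upper-quartile scaling, other filters, priors, thresholds and the trends. Some results are not reported here.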

Additional observations from a re-analysis of the deposited data

How the results depend on the processing

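No paired analysis was possible because each group had 1 library, and leaving out a replicate was not possible for the same reason. In V1 over empty vector, a mean CPM of at least 10 left 73 members, with 41 called higher and 9 lower. The share of members called higher there stayed above that of all genes, and the share called lower stayed below it. No filter gave 36 lower, out of a larger number of members. Those 36 were 13.5% of the members, against 19.2% of all genes. With the main filter the lower calls were 15.3% of the members, against 26.2% of all kept genes. In V4 over empty vector the stricter filter gave 39 of 73 members higher and 14 lower, and a fold threshold of 2 gave 18 of 150 lower. In V4 over V1 the stricter filter gave 3 higher and 1 lower, a fold threshold of 2 gave 0 higher and 5 lower, and no filter gave 8 higher and 15 lower. For V4 over empty vector and V4 over V1, shares of all genes under these settings are not given here. Those counts therefore show only how many members were called. Fewer or more genes entered under another filter, by construction. Scaling to library totals moved the median log2 ratio of members in V1 over empty vector to 1.06, and it moved that of all kept genes by 0.28 (V1) and 0.25 (V4) over empty vector. The other counts stayed within 1.5 times under the alternatives tried. Of the single-gene results, 1170 kept their call, or stayed uncalled, under an alternative, 19 lost a call and 15 gained one. In 1 called result the direction turned, SLC25A5 in V4 over empty vector with the length trend removed (log2 ratio 0.47). Direction was not part of the 1170, and it turned in some uncalled results. For SLC25A5 in V1 over empty vector the log2 ratio went from -0.54 to 0.42 with the length trend removed. The causes were not tested. With the filter and scaling taken from the V1-labelled and V4-labelled libraries alone, V4 over V1 had 5 members higher and 10 lower. The share of all genes under that setting is not given here either. Removing length and GC trends and using those libraries alone were chosen after seeing the data. The library taken as empty vector is the shallowest (a median of 37 counts a member), its identity rests on elimination, and no group has a replicate.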

Other observations

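Transporters outside the SLC symbols were read too. Of 33 genes with ABC transporter symbols, most of which encode ATP-driven pumps, 19 were kept. There were 5 called higher and 4 lower in V1 over empty vector, and 8 higher and 5 lower in V4 over empty vector. V4 over V1 had 1 higher and 2 lower. In V1 over empty vector these are 26.3% higher and 21.1% lower, against 32.8% and 26.2% of all kept genes, and in V4 over empty vector 42.1% and 26.3%, against 32.7% and 29.3%. In V4 over V1 they are 5.26% higher and 10.5% lower, against 5.42% and 6.95%. The ABCF genes in this list are not membrane pumps, and some of the lower calls are theirs. ABCF1 was called lower in both comparisons over empty vector, and ABCF2 in V4 over empty vector and V4 over V1. ABCA3, a lipid pump, had 2444 and 2679 counts in the V1-labelled and V4-labelled libraries, against 709 in the library taken as empty vector, ratios of 2.18 (interval 2.01 to 2.38) in V1 over empty vector and 2.36 (interval 2.17 to 2.57) in V4 over empty vector. ABCB8, a mitochondrial ABC protein, had 48 counts in the V4-labelled library and 15 in the V1-labelled library, a ratio of 3.16 (interval 1.74 to 6.08). Of 9 SLCO organic anion transporters, 3 were kept, and SLCO5A1 was higher in both comparisons over empty vector while SLCO4A1 was lower in both.

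Some SLC genes that are widely expressed or known from prostate cells lay below the filter. SLC45A3, the prostate marker prostein, had 1, 0 and 0 counts in the V1-labelled library, the V4-labelled library and the library taken as empty vector. SLC1A5, the glutamine transporter ASCT2, had 7, 9 and 2 counts, and SLC44A1, a choline transporter, 3, 2 and 0, in the same libraries. These genes were chosen after their values were seen. Of the 135 SLC symbols below the filter, 19 were at 0 in all 3 libraries and 21 reached 10 or more counts in some library, with 18 the highest count of any.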
